A study of Mus musculus with 3 samples.

Results

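The cardiac sarcomere genes were 35 genes of the contractile unit of heart muscle and of its Z-disc, the structure that joins neighbouring units. They were taken by name from a list of sarcomere and Z-disc genes, and all 35 were among the 36167 features of the deposited tables. They were followed in nuclei of mouse aortic valve structures at postnatal day 1, in 3 pools, each made from 22 to 24 aortic roots. The pools belong to 1 group, so no treatment or genotype is compared. The strain label of all 3 pools is B6.Cg-Scx tm1.1(EGFP)Skom, which names an EGFP allele of Scx, a tendon transcription factor gene, and zygosity is not given. The valve structures had been frozen, and the assay was the 3' gene expression part of a 10x Multiome kit, which counts RNA molecules of single nuclei by unique molecular identifiers (UMIs).

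In the sarcomere, thick filaments of myosin slide along thin filaments of actin when calcium binds the troponin complex that sits on tropomyosin. Titin spans from the Z-disc to the M-band in the middle of the unit and holds the thick filament in place. Hearts exchange several isoforms of these proteins around birth, and atria and ventricles carry different myosin light chains. An aortic valve structure also holds vascular smooth muscle, endothelial, interstitial and other cells, and these use other isoforms of the same families.

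The pools held 10580, 5949 and 4611 deposited nuclei with 49918251, 25341316 and 21254247 UMIs. Nuclei with over 5% mitochondrial UMIs, 3023 in pool 1, 2486 in pool 2 and 650 in pool 3, were left out, as were nuclei with fewer than 1000 UMIs. The 14019 nuclei that passed had median totals of 4495, 4907.5 and 3424 UMIs. Pools 1 and 2 shared 99 barcodes, pools 1 and 3 shared 59 and pools 2 and 3 shared 44.

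Cardiomyocyte-like nuclei numbered 2382 after doublets were removed, with 1022, 591 and 769 in pools 1, 2 and 3, or 18.8% ± 2.81 of the nuclei (SD, n = 3 pools). The name rests on markers outside the 35 genes, such as Ryr2, Trdn, Cmya5, Mylk3 and Txlnb, and the 35 genes were held out when nuclei were clustered. The class had 5 clusters. The largest held 1546 nuclei and was led by Fgf13, Ryr2 and Fhl2. It reached only 2 of the fixed ventricular markers, Irx4 and Hey2, and is called the Fgf13-led cluster. A cluster of 518 nuclei was led by Erc2 and Lrrc4c and reached 2 conduction markers, Isl1 and Cacna1d. A cluster of 196 nuclei had 5 atrial markers, Nppa, Sln, Stard10, Dkk3 and Kcnj3, beside 3 conduction markers, and is called atrial-like. It was led by Ryr3, Cpne5 and Fgf12. The other 2 clusters, of 72 nuclei led by Mb and of 50 nuclei led by Knl1, a kinetochore gene, were too small to test.

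Promoters of members whose levels stood apart below are shown for the motifs of muscle transcription factors in them. Each is the 250 bases before the annotated start, from RefSeq on GRCm38.p6, which is not the build of the count tables, and was matched by symbol. Of the 35 genes, 31 matched with 41 windows, and Myom2, Fhod3, Tcap and Xirp1 had no entry. Capitals mark matches, on either strand, to the CArG box bound by serum response factor, the M-CAT element CATTCC bound by TEAD factors, the GATA site AGATAA, the MEF2 site and the TATA box TATAAA.
Myl7, chr11:5898783-5899032, minus strand: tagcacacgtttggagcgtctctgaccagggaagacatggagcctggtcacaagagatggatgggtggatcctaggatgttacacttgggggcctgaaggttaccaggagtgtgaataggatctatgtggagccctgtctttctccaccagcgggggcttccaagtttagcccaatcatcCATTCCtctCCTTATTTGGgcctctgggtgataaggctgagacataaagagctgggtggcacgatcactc
Actc1, chr2:114052876-114053125, minus strand: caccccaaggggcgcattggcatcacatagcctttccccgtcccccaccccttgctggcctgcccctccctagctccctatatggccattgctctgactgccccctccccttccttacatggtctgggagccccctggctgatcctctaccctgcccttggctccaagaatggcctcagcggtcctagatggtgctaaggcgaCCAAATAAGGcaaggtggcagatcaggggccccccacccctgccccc
Myom1, chr17:71019307-71019556, plus strand: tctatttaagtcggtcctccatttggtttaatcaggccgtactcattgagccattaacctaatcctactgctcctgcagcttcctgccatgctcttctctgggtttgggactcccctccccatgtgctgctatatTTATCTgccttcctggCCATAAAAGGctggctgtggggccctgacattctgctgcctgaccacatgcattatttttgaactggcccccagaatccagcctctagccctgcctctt
Unc45b, chr11:82911003-82911252, plus strand: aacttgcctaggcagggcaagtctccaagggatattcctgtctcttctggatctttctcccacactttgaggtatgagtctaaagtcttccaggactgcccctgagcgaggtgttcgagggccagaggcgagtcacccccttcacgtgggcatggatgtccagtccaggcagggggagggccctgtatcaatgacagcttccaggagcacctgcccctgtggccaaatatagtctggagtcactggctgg
In the Myl7 window the M-CAT element lay 70 to 65 bases and the CArG box 61 to 52 bases before the start. The CArG box of Actc1 lay 47 to 38 bases before its start. Myom1 had a CArG box 99 to 90 bases and a GATA site 115 to 110 bases before the start, and the Unc45b window held 0 of these motifs.

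CArG boxes stood in 8 of the members' 41 windows (19.5%) and in 1.47% of all 32851 windows. The genes that had one were Acta1, Actc1, Ldb3, Myl3, Myl7, Myom1 and Nebl. The M-CAT element was in 14 windows (34.1%, against 12.6% of all), and the MEF2 site in 4 (9.76%, against 2.92%), those of Mybpc3, Myoz2, Ttn and Xirp2. The GATA site was in 6 windows (14.6%, against 9.99%) and the TATA box in 5 (12.2%, against 12.4%). The MEF2 site and the TATA box are both rich in A and T, so their matches can overlap. Windows of 1 gene can overlap too, and a match is a description of letters, not a bound site.

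Together the 35 genes took 3.93% of the UMIs of cardiomyocyte-like nuclei, with 4.25%, 3.97% and 3.57% in pools 1, 2 and 3. Levels are given in CPM, the UMIs of a gene summed over the nuclei of a pool and scaled to a common library total. Nuclear RNA includes unspliced transcripts, and a long gene has more places from which a read can start, so levels of different genes are set against each other per kb of gene span. Whether reads in introns were counted is not given in the sources used here, and every value per kb of span rests on it.

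Among the thick filament genes, Myh6, the main adult myosin heavy chain of the mouse heart, had 3072, 2914 and 2360 CPM. Myh7, the heavy chain that dominates before birth in the ventricle, had 359, 303 and 229 CPM. Pool 3 was lowest for both. Per kb of span Myh6 stood at 111 CPM and Myh7 at 12.4 CPM. Myl2, the regulatory light chain of the ventricle, had 1798, 1729 and 1322 CPM, and Myl3, the essential light chain of the ventricle, had 583, 647 and 445 CPM. Their atrial counterparts spread far more between pools. Myl7 had 283, 209 and 97.4 CPM and Myl4 had 210, 151 and 74.2 CPM, in each case highest in pool 1 and lowest in pool 3. Mybpc3, which binds myosin and regulates it, had 544, 388 and 307 CPM.

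Thin filament genes were led by troponin T, Tnnt2, with 3033, 2815 and 2362 CPM, the highest level per kb of all 35 genes (172 CPM per kb). Tnnc1, the calcium-binding troponin C, followed with 157 CPM per kb, from 643, 556 and 410 CPM in the pools. Cardiac actin, Actc1, had 893, 901 and 529 CPM, and tropomyosin, Tpm1, had 1527, 1497 and 1247 CPM. Skeletal actin, Acta1, had 23.1, 10.2 and 9.21 CPM, with pool 1 above the others, where 1 nucleus held 66 of the 139 UMIs of the gene. The fetal troponin I, Tnni1, had 512, 495 and 415 CPM and the adult form, Tnni3, had 428, 441 and 294 CPM. Lmod2 and Tmod1, which act at the pointed end of the thin filament, had 172 ± 18.3 and 257 ± 18.3 CPM (SD, n = 3). Fhod3, a formin of the sarcomere, had 2249, 2420 and 2414 CPM but only 5.56 CPM per kb of its 425 kb span.

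Titin, Ttn, had 18392, 16317 and 15665 CPM, and 60.3 CPM per kb of its 279 kb span. Of the myomesins that cross-link the M-band, Myom1 had 1820, 1889 and 1786 CPM and Myom2 had 279, 321 and 322 CPM. These 2 genes varied little between pools. At the Z-disc, the actin cross-linker Actn2 had 1073, 1088 and 1056 CPM, the narrowest spread of the 35 relative to its mean. Ldb3, which binds it, had 1428, 1278 and 1261 CPM, and Nebl, nebulette, had 825, 885 and 856 CPM. Des, the intermediate filament that links Z-discs, had 114, 95.6 and 72.1 CPM, with pool 3 lowest. Xirp2, which sits at sites of cell attachment, had the lowest level per kb, 0.858 CPM. Of the genes of assembly and turnover, the myosin chaperone Unc45b had 95.9, 86.4 and 75.2 CPM. The myosin methyltransferase Smyd1 had 323, 355 and 337 CPM, and Trim63, a ubiquitin ligase of muscle, had 239, 210 and 187 CPM.

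**Figure D1:**
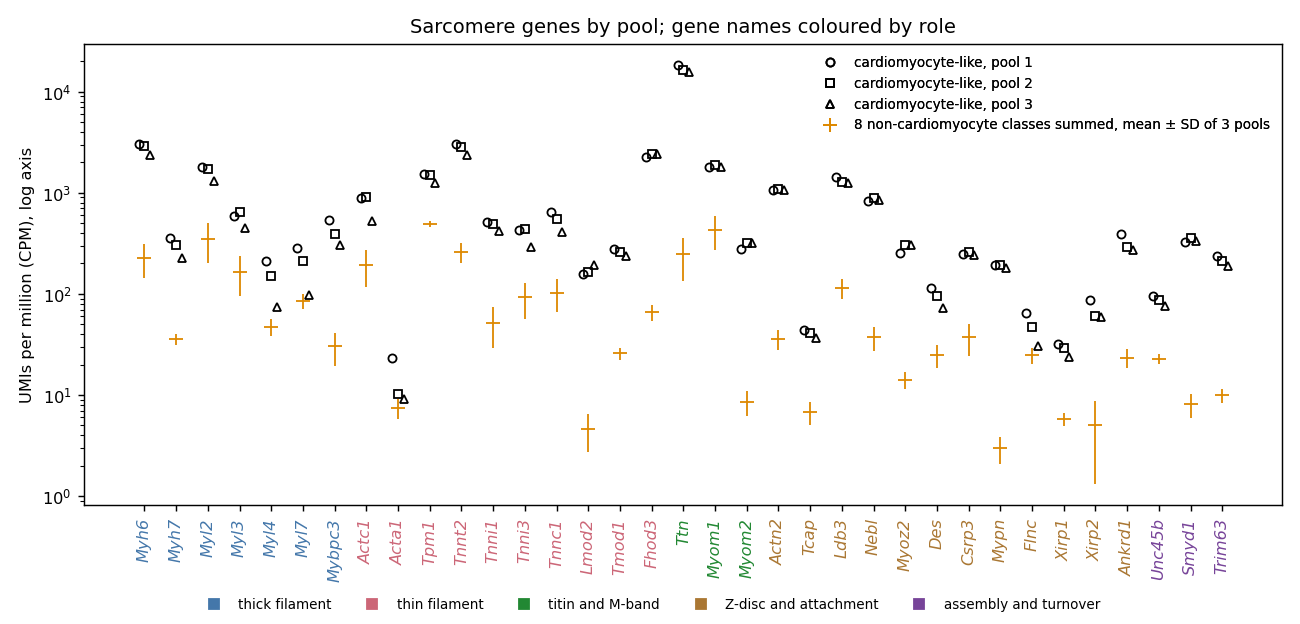
Level of each of the 35 genes in cardiomyocyte-like nuclei of the 3 pools, in CPM on a log axis, ordered by role, 1 point per pool. The values are not scaled for length, and the points of Myl4, Myl7 and Acta1 are spread more widely than those of Actn2 or Myom1.

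Isoform shares were computed per pool from UMIs of paired genes. Myh6 made up 89.5%, 90.6% and 91.2% of the Myh6 and Myh7 UMIs (90.4% ± 0.817, SD, n = 3). The adult troponin I, Tnni3, was 45.5%, 47.1% and 41.4% of the Tnni3 and Tnni1 UMIs, and per kb of span its share was 81.1% on average, because Tnni1 spans more bases, a scaling that applies only if reads in introns were counted. Myl2 was 89.6% ± 3.38 of the Myl2 and Myl7 UMIs and Myl3 was 80.1% ± 6.15 of the Myl3 and Myl4 UMIs, both lowest in pool 1 and highest in pool 3. Acta1 was 1.78% ± 0.70 of the Acta1 and Actc1 UMIs. Scaled per kb of span, the shares were 60.2% ± 9.0 for Myl2, 86.6% ± 4.49 for Myl3, 3.67% ± 1.42 for Acta1 and 90% for Myh6. In the atrial-like cluster Myl2 was 50.9% ± 12.0 of its pair's UMIs and 15.8% ± 6.38 per kb of span, so on the second scale Myl7 was the larger of the pair there. The Myl7 UMIs came mostly from a minority of nuclei, since the 54 of the 196 nuclei with over 1% mitochondrial UMIs held 489 Myl2 and 1572 Myl7 UMIs and the other 142 held 1041 and 216. The shares of Myl2 in the Fgf13-led cluster were 97.9% ± 0.626 and 89.0% ± 3.05. These shares moved with the mitochondrial share of the nuclei. In nuclei with at most 1% mitochondrial UMIs the share of Tnni3 was 38.0%, that of Myl2 96.9% and that of Myl3 90%. The part of the mitochondrial share in these values was not tested.

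**Figure D2:**
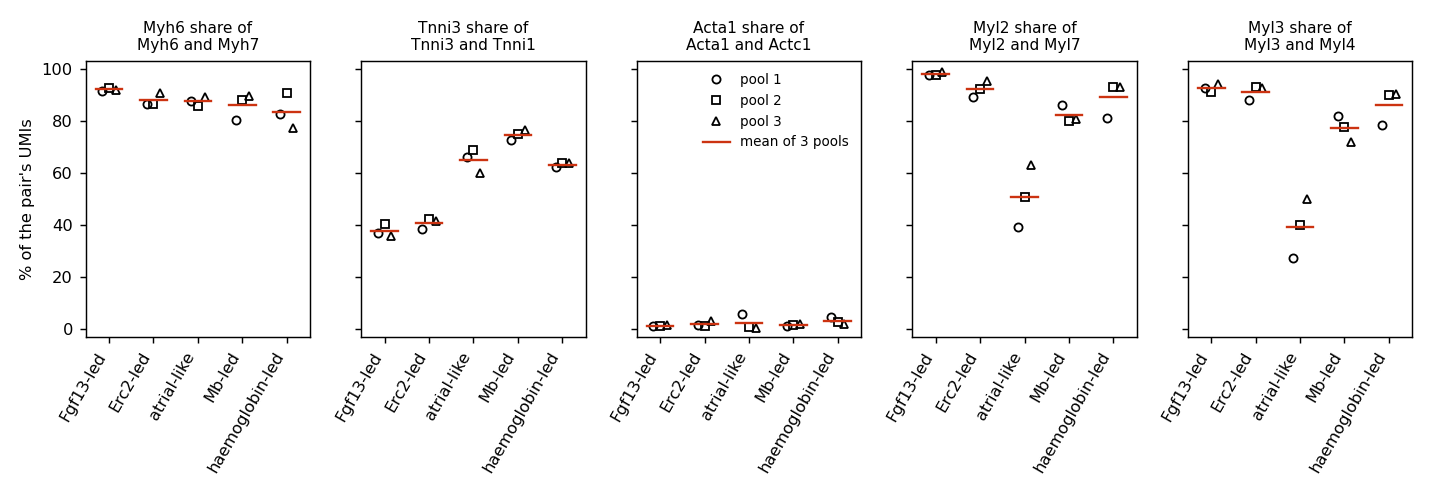
Share of the first-named isoform in the UMIs of each isoform pair, in percent, in 4 cardiomyocyte-like clusters and the haemoglobin-led cluster described at the end, with 1 symbol per pool and a line at their mean. Shares are not scaled for span. In the atrial-like cluster the Myl2 share lies between 39.0% and 63.0%, below every pool of the Fgf13-led cluster, a range set largely by its 54 nuclei with over 1% mitochondrial UMIs.

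Differences between the Fgf13-led, Erc2-led and atrial-like clusters were tested on UMIs summed per pool and cluster, with edgeR's quasi-likelihood test, the pool as a block and Benjamini-Hochberg adjustment over 9468 genes at 0.05. Each cluster was set against the mean log level of the other 2. The nuclei were grouped by other genes of the same nuclei, so these p-values measure how a difference repeats over the 3 pools, whose spread may be technical in part. Of the 35 genes, 27 passed in at least 1 of the 3 tests, against 36.8% of all genes. In the atrial-like cluster 14 were higher and 9 lower, against 16.7% and 12.4% of all genes. In the Fgf13-led cluster 11 were higher and 9 lower (10.7% and 12.1% of all genes), and in the Erc2-led cluster 2 were higher and 12 lower (7.33% and 8.26%). The balance in the atrial-like cluster turned to 10 higher and 12 lower of 34 tested on nuclei with at most 1% mitochondrial UMIs, and to 8 higher and 10 lower without pool 1. At the 1% limit the Fgf13-led cluster had 15 higher and 7 lower and the Erc2-led cluster 2 higher and 8 lower. Without pool 1 the Erc2-led cluster had 7 lower, and without pool 3 the Fgf13-led cluster had 8 higher and 11 lower. With DESeq2 and with no replicate block the Fgf13-led cluster had 7 higher and 9 lower. The Erc2-led cluster had 1 higher and 7 lower with no replicate block. The median log2 difference of the 35 genes was 0.18, 0.08 and -0.15 in the 3 clusters in that order, and that of all genes tested was 0.01, 0.00 and -0.01.

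The light chains of the atrium set the atrial-like cluster furthest apart. Myl7 had 1835, 1627 and 632 CPM there, 43.2, 45.8 and 20.9 CPM in the Fgf13-led cluster and 75.8, 70.2 and 26.1 CPM in the Erc2-led cluster. Every pool of the atrial-like cluster was above every pool of the others, and the fitted difference was 27.7-fold (log2 4.79, SE 0.10, edgeR adjusted p = 1.07e-18). Myl4 had 1403, 1148 and 387 CPM in the atrial-like cluster and at most 53.6 CPM in any pool of the other 2 clusters (21.8-fold, edgeR adjusted p = 1.66e-15). Myl2, the ventricular form, was present in all 3 clusters. It had 1175, 1669 and 1074 CPM in the atrial-like cluster, 1831, 1722 and 1480 CPM in the Fgf13-led cluster and 620, 817 and 526 CPM in the Erc2-led cluster. Its difference in the atrial-like cluster missed the threshold (log2 0.20, edgeR adjusted p = 0.104), it was higher in the Fgf13-led cluster (log2 0.97, edgeR adjusted p = 1.16e-08) and lower in the Erc2-led cluster (log2 -1.17, edgeR adjusted p = 4.47e-09). The heavy chain Myh6 did not pass in the atrial-like cluster (log2 0.06, edgeR adjusted p = 0.652), and Myh7 was higher there by 0.45 (edgeR adjusted p = 0.0100), with pools that overlapped the other clusters. On nuclei with at most 1% mitochondrial UMIs both calls changed, with Myl2 higher by 0.30 (edgeR adjusted p = 0.00895) and Myh6 lower (log2 -0.46, edgeR adjusted p = 0.000211).

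The atrial-like levels depended on a minority of nuclei. The 54 nuclei with over 1% mitochondrial UMIs, 27.6% of the cluster, had Myl7 at 4826, 4252 and 2795 CPM in pools 1, 2 and 3, and the other 142 nuclei had it at 270, 315 and 185 CPM. For Myl4 the summed level was 3046 CPM in the 54 nuclei and 254 CPM in the 142. Median totals of these nuclei were close, 5254.5 and 5367 UMIs. Actc1 stood at 4162 against 702 CPM, Tnni3 at 1765 against 357 CPM, Tpm1 at 5331 against 2545 CPM and Ttn at 12831 against 10903 CPM. A single nucleus of pool 1 with 39353 UMIs and 4.28% mitochondrial UMIs held 626 of the 1495 Actc1 UMIs, 425 of the 1572 Myl7 UMIs and 293 of the 1094 Myl4 UMIs of the 54 nuclei. Without it the cluster's difference was 4.53 for Myl7, 4.22 for Myl4 and 1.09 for Actc1, and all 3 passed. The same split of the Fgf13-led cluster gave Myl7 at 120 CPM above and 28.0 CPM at or below 1%. In a test added after these values were seen, on nuclei with at most 1% mitochondrial UMIs, Myl7 was higher in the atrial-like cluster by log2 2.97 (edgeR adjusted p = 3.81e-12) and Myl4 by 2.99 (edgeR adjusted p = 4.4e-12), so both kept their call at a smaller size.

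Of the 10 thin filament genes, 5 were higher in the atrial-like cluster and 3 lower. Actc1 had 2237, 1676 and 768 CPM there, and no more than 733 CPM in any pool of the other 2 clusters (log2 1.42, SE 0.16, edgeR adjusted p = 4.02e-07). Tpm1 had 3754, 3643 and 2361 CPM, above the highest value elsewhere, 1324 CPM (log2 1.37, edgeR adjusted p = 4.72e-10). Tnni3 had 883, 931 and 417 CPM against 248 to 388 CPM elsewhere (log2 1.20, edgeR adjusted p = 1.21e-07), and Tnni1 differed by -0.36 with overlapping pools. With at most 1% mitochondrial UMIs, Actc1 remained higher by only 0.47, Tpm1 by 1.11, and Tnni3 no longer passed (log2 0.35, edgeR adjusted p = 0.10). Tnnc1, higher by 0.44 over all nuclei, turned to -0.16 there. Acta1 was 140, 14.0 and 3.26 CPM in the atrial-like cluster, so the rise was carried by pool 1, and the single nucleus of pool 1 named above held 66 of the 217 Acta1 UMIs of all cardiomyocyte-like nuclei. Its fitted difference of 2.70 (edgeR adjusted p = 0.000238) fell to 1.18 without that nucleus (edgeR adjusted p = 0.061) and to -0.19 without pool 1.

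All 3 genes of titin and the M-band were lower in the atrial-like cluster. Ttn had 13054, 10327 and 9387 CPM, below the lowest value of the other clusters, 15091 CPM (log2 -0.75, SE 0.06, edgeR adjusted p = 6.95e-09). Myom2 had 141, 59.5 and 91.2 CPM against 287 to 373 CPM elsewhere (log2 -1.77, edgeR adjusted p = 4.75e-08). Fhod3 moved the same way, with 970, 969 and 1123 CPM in the atrial-like, 1574, 1792 and 1879 CPM in the Erc2-led and 2700, 2772 and 2776 CPM in the Fgf13-led cluster. The 3 clusters were thus ordered without overlap for Fhod3, which differed by log2 -1.21 in the atrial-like cluster (edgeR adjusted p = 6.07e-11) and by 1.13 in the Fgf13-led cluster (edgeR adjusted p = 2.84e-11). These calls were as large with at most 1% mitochondrial UMIs, where Ttn differed by -0.83, Fhod3 by -1.19 and Myom2 by -1.89 in the atrial-like cluster.

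Of the 12 Z-disc and attachment genes, 6 were higher and 2 lower in the atrial-like cluster. Ankrd1, a stretch-responsive partner of titin (log2 1.09, edgeR adjusted p = 4.72e-08), the titin cap Tcap (1.25, edgeR adjusted p = 7.97e-05) and Csrp3, a muscle LIM protein (0.77, edgeR adjusted p = 0.000158), did so with no overlap of pools. Des (1.19), Xirp2 (0.98) and the actin cross-linker Flnc (0.79) also passed, and their pools overlapped those of other clusters. Mypn, myopalladin, and Nebl were the 2 that were lower. Csrp3 and Flnc did not pass with at most 1% mitochondrial UMIs. Of the 3 genes of assembly and turnover only Smyd1 differed in the atrial-like cluster, by log2 -0.46 (edgeR adjusted p = 0.00107).

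In the Erc2-led cluster 3 of 7 thick filament, 4 of 10 thin filament and 5 of 12 Z-disc genes were lower. Both genes that were higher belong to titin and the M-band. Myom2 had 349, 371 and 373 CPM, above every pool of the other 2 clusters (log2 0.99, edgeR adjusted p = 8.7e-06), and Ttn was higher by only 0.19 (edgeR adjusted p = 0.0314), a call lost with DESeq2, with doublets kept, with no replicate block and without pool 2 or pool 3. The Fgf13-led cluster was higher in Fhod3, Myl2, Myom2, Mypn and Ttn, by log2 1.13, 0.97, 0.79, 0.65 and 0.56. It was lower in Myh7 (log2 -0.62, edgeR adjusted p = 0.00036) and in Xirp2 (-1.01, edgeR adjusted p = 3.97e-05).

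**Figure D3:**
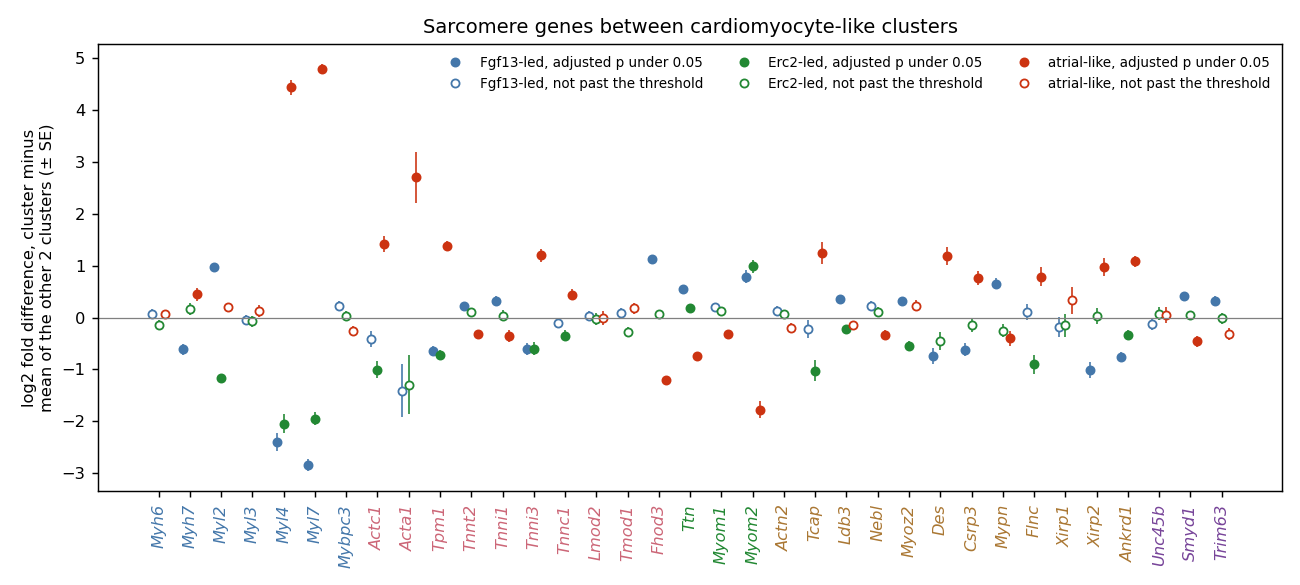
Log2 difference of each gene in the Fgf13-led, Erc2-led and atrial-like clusters from the mean of the other 2 clusters, with 1 SE, filled where the edgeR adjusted p was under 0.05. Myl7 and Myl4 lie near 5 in the atrial-like cluster, and Ttn, Fhod3 and Myom2 lie below 0 there.

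Related genes outside the 35 were counted in the same tests. Of 25 other muscle isoforms of the same families, 13 could be tested, and 10 were higher and 2 lower in the atrial-like cluster, among them the essential light chain Myl1 and the myosin binding protein Mybphl, both at log2 4.85. Of 16 regulators of sarcomere genes, 14 were tested, and 2 were higher and 5 lower (the background is again 16.7% and 12.4% of all genes), including the titin splicing factor Rbm20 at -1.45 and the serum response factor coactivator Myocd at -1.30. Of 10 calcium handling genes 2 were higher and 5 lower, with the release channel Ryr2 at -1.11. One of the 2 that were higher, Sln, is also an atrial marker used for the name. Of 16 other Z-disc and M-band genes 14 were tested, with 3 higher and 6 lower. In the Fgf13-led cluster 6 of the 10 calcium handling genes were higher and 1 lower, and 9 of 13 muscle isoforms were lower and 1 higher, beside 10.7% higher and 12.1% lower of all genes.

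The Mb-led cluster of 72 nuclei was not tested. Its median total was 1663.5 UMIs, its median mitochondrial share 3.06%, and the 35 genes took 11.7% of its UMIs (12.2%, 9.33% and 13.5% in the pools). Myl2 stood at 25585, 15978 and 21835 CPM, above the Fgf13-led cluster in every pool, and Ttn at 2871, 4881 and 11262 CPM, below it in every pool. Markers of other cells were higher here too, with 7 erythroid markers at 765, 4222 and 7328 CPM against 183 to 343 CPM in the Fgf13-led cluster and 8 smooth muscle markers at 1298 to 2311 CPM against 477 to 581 CPM. Of the erythroid markers 4 met the naming rule, beside 5 cardiomyocyte markers, and their part in the levels was not tested. Against the Fgf13-led cluster the median level of the 10 members with a span under 10 kb was 1423%, that of the 20 between 10 and 100 kb was 243% and that of the 5 over 100 kb was 34.8%. Single members did not all follow the medians, and the lowest of those under 10 kb stood at 64.1%.

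Cycling nuclei were cardiomyocyte-like nuclei with at least 2 UMIs of 12 cell cycle genes. UMIs were not thinned for this, and deeper nuclei reach 2 UMIs more easily. Cycling nuclei were therefore matched on UMI total to nuclei of the same pool and cluster with none of these UMIs, giving 82, 51 and 21 pairs. Matching was within clusters, and no match was found for 25, 10 and 10 cycling nuclei, which were left out. The Knl1-led cluster held 30, 10 and 10 nuclei in the pools. With at least 3 cell cycle UMIs, 23, 10 and 10 nuclei had no match beside 32, 20 and 5 pairs. The comparison thus leaves out many nuclei with more cell cycle UMIs. The 35 genes took 2.91% of the UMIs of the Knl1-led cluster and 4.02% in the Fgf13-led cluster, which was not tested. Only Acta1 passed (log2 2.54, SE 0.40, edgeR adjusted p = 0.0255) of the 35 genes, against 0.117% of 5973 genes, with 72, 12 and 5 UMIs in cycling nuclei and 9, 3 and 1 in their matches. The direction was the same in all 3 pools, but the nucleus named above gave most of pool 1's count, and 0 of the 35 genes passed without it. At an unadjusted p under 0.05 there were 3 of 35, and DESeq2 called 0. The median log2 difference of the 35 genes was -0.08, and that of all genes was 0.01.

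Outside cardiomyocyte-like nuclei the 35 genes took 0.330% of the UMIs of 9198 nuclei in 8 classes that could be tested: smooth muscle-like (3042 nuclei), endothelial-like (2751), valve interstitial-like (1542), fibroblast-like (954), mesothelial-like (371), macrophage-like (279), pericyte-like (140) and lymphatic endothelial-like (119). In droplet data free RNA can give UMIs in nuclei that do not express a gene. Its part in the levels below was not tested. Nuclei with at least 10 Ttn UMIs held between 13.2% (smooth muscle-like) and 91.5% (macrophage-like) of the Ttn UMIs of their class. As a percentage of the cardiomyocyte-like level of the same pool, the median of the 35 genes was 10.7%, with Ttn at 1.5% and Acta1 at 60.3% as the ends. That of 11 cardiomyocyte genes that are not in the list was 8.32%. The percentage went with span, at a median of 22.2% for the 10 genes under 10 kb, 9.86% for the 20 from 10 to 100 kb and 2.78% for the 5 over 100 kb. Spearman's rho over the 35 genes, which share libraries and nuclei, was -0.49.

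**Figure D4:**
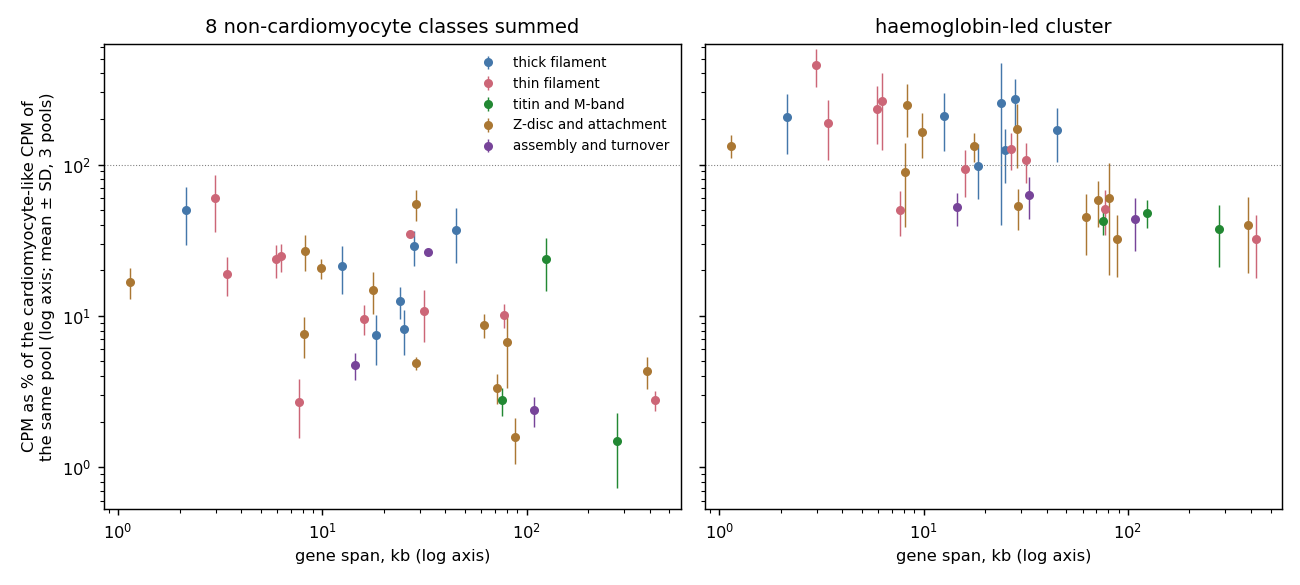
Level of each gene outside cardiomyocyte-like nuclei, as a percentage of its cardiomyocyte-like level in the same pool, against gene span in kb, both on log axes, 1 point per gene. The percentages fall with span, and in the left panel Myom1 stands above other genes of its span.

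To find members that differ between these classes, each class was set against the mean log level of the other 7, over 13234 genes. This compares classes and does not test a level against free RNA. Xirp2 was under the filter on low counts, and 34 of the 35 were tested. In smooth muscle-like nuclei 5 were higher and 3 lower, against 23.7% and 20% of all genes. The lower members numbered 14 with marked doublets kept and 18 with the haemoglobin-led cluster, described at the end, counted as a class. Myom1 led, with 1572, 1139 and 1360 CPM, a level near the 1820, 1889 and 1786 CPM of cardiomyocyte-like nuclei and above every pool of every other tested class (11.2-fold, log2 3.48, SE 0.13, edgeR adjusted p = 1.44e-18). After thinning every nucleus to 1000 UMIs, 62.9% of smooth muscle-like nuclei had a Myom1 UMI, against 4.54% in the endothelial-like and 78.5% in the cardiomyocyte-like class. Unthinned, at median totals of 3304.5, 4452 and 5396 UMIs, the shares were 84.4%, 14.7% and 96.9%. Ldb3 had 342, 302 and 278 CPM (5.71-fold, edgeR adjusted p = 3.24e-15), with a UMI in 25.0% of thinned and 51.8% of unthinned nuclei. Tpm1, which smooth muscle also uses, had 817, 908 and 766 CPM (log2 1.06, edgeR adjusted p = 5.11e-11), and Xirp1, an actin-binding repeat protein, had 10.8, 17.1 and 13.5 CPM (log2 1.76, edgeR adjusted p = 1.1e-06) and was under the filter on low counts at the 1% mitochondrial limit. Myl4 was the fifth, at a log2 difference of 0.32 (edgeR adjusted p = 0.0253). Its call was lost when any 1 pool was left out, with DESeq2 and at the 1% mitochondrial limit, and its direction turned (-0.14) with classes of at least 100 nuclei.

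Ttn (log2 -1.15), Nebl (-1.28) and Myh6 (-0.40) were lower in smooth muscle-like nuclei. Without nuclei that held at least 10 Ttn UMIs in any of the 8 classes, a setting added after the data were seen, Myh6 no longer passed (-0.04) and Nebl stood at -0.67 (edgeR adjusted p = 0.0455). That setting removes nuclei by their Ttn count, so it gives no test of Ttn itself. Nebl did not pass at the 1% mitochondrial limit (log2 -1.77, edgeR adjusted p = 0.166). Myh6 also lost its call without any 1 of the pools. Des, a shared filament of both muscle types, did not pass at 0.00 with all nuclei. Of the 11 cardiomyocyte genes outside the list 9 were tested, with 2 higher and 1 lower, and their summed level was 515 to 723 CPM against 3737 to 3877 CPM in cardiomyocyte-like nuclei. Corin, a protease, made up much of that sum, at 360, 346 and 611 CPM. Of the other Z-disc and M-band genes 8 of 13 tested were higher and 2 lower, led by Nexn, nexilin (log2 2.58). Of the muscle isoforms 7 of 12 were higher and 1 lower, among them smooth muscle actin, Acta2 (2.16), and Myl9 (1.85), and of the regulators 8 of 14 were higher and 3 lower, led by Myocd (2.95). In the fit without the Ttn-rich nuclei Myom1 was higher by 3.71 and Ldb3 by 2.87, and 9 members were higher and 1 lower. On nuclei with at most 1% mitochondrial UMIs 3 were higher and 2 lower.

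Pericyte-like nuclei had 9 of the 34 genes higher and 0 lower, against 9.08% and 4.84% of all genes. The count of higher members was 4 without pool 1, 4 without pool 2, 13 without pool 3 and 5 with no replicate block. The 8 smooth muscle markers summed to 4326, 4786 and 4583 CPM in this class, against 5736 to 6296 CPM in smooth muscle-like and 375 to 2499 CPM in the other 6 classes. Of these markers 5 met the rule by which clusters were named, beside 7 pericyte markers. Their part in the calls of Myom1, Ldb3 and Tpm1 was not tested. Myom1 stood at 836, 500 and 986 CPM (log2 2.32, edgeR adjusted p = 6.09e-12), below smooth muscle-like nuclei in every pool, and Ldb3 at 259, 206 and 344 CPM (2.08, edgeR adjusted p = 2.02e-08), where the 2 classes overlapped. Des was higher with 59.2, 96.6 and 25.7 CPM (log2 1.25, edgeR adjusted p = 0.00155), a call lost without pool 2. Ttn, at 914, 290 and 606 CPM, passed as well (log2 1.48), and its call was lost without pool 1 (edgeR adjusted p = 0.212) and with marked doublets kept (edgeR adjusted p = 0.0627). In this class 5 nuclei held at least 10 Ttn UMIs each and 79.7% of the Ttn UMIs. With the pools summed, Ttn stood at 617 CPM over all nuclei and 133 CPM without these 5. Of 9 tested cardiomyocyte genes outside the list 3 were higher here, Corin, Ckm and Hrc, and 0 lower. The 11 summed to 559 to 825 CPM in this class, the highest mean of the 8 classes. Corin made up much of that sum too, at 525, 202 and 550 CPM, or 140%, 58.2% and 121% of its cardiomyocyte-like level.

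Mesothelial-like nuclei, of the layer that covers the heart and great vessels, went 2 ways, with 6 genes higher and 22 lower, against 31.4% and 28.3% of all genes. Most of these calls depended on the nuclei and pools used. On nuclei with at most 1% mitochondrial UMIs 3 of 31 were higher and 5 lower, and the lower members numbered 12 without pool 2 and 15 without pool 1. Unc45b, the myosin chaperone, had 100, 91.5 and 97.1 CPM, which exceeded its cardiomyocyte-like level of 95.9, 86.4 and 75.2 CPM in each pool, and stood above every pool of every other tested class (9.09-fold, log2 3.18, SE 0.18, edgeR adjusted p = 2.07e-15). It had a UMI in 9.53% of thinned and 51.5% of unthinned nuclei, against 0.23% and 1.4% in valve interstitial-like nuclei, at median totals of 9904 and 3648.5 UMIs. Myl7 had 224, 234 and 232 CPM, also above every other tested class (3.89-fold, edgeR adjusted p = 1.48e-12), with a UMI in 13.6% of thinned nuclei against 4.60% of smooth muscle-like ones. Fhod3 had 142, 116 and 163 CPM (log2 1.40), Flnc 53.3, 56.3 and 37.4 CPM (1.27), and Tnni1 and Tpm1 passed by 0.67 and 0.25. At the 1% limit Unc45b (4.08), Myl7 (2.18) and Flnc (1.46) still passed, and Fhod3, Tnni1 and Tpm1 did not (edgeR adjusted p = 0.131, 0.121 and 0.111). Tnni1 also lost its call without pool 1, and Tpm1 without pool 1 or pool 3. Most other members were lower, among them Myom1 (log2 -3.05) and Tmod1 (-2.28). The 11 cardiomyocyte genes summed to 102 to 163 CPM, the lowest mean of the 8 classes, with 6 of 9 tested lower and 1, Mylk3, a myosin light chain kinase, higher by 1.93. Of the calcium handling genes 10 of 10 were lower. Among the muscle isoforms, Mybpc2 was higher by 6.58, from 13.3, 14.3 and 9.34 CPM in its pools.

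**Figure D5:**
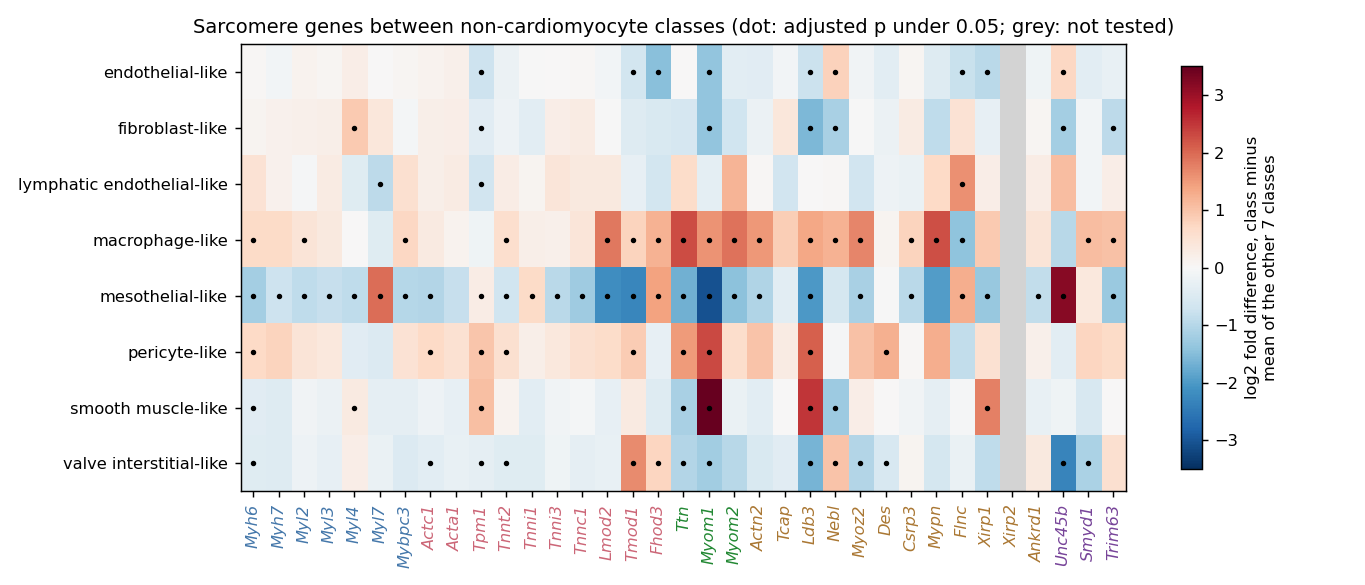
Log2 difference of each gene in each of the 8 tested classes from the mean of the other 7, with called genes marked at an edgeR adjusted p under 0.05. Myom1 and Ldb3 in smooth muscle-like and pericyte-like nuclei, Unc45b and Myl7 in mesothelial-like and Tmod1 in valve interstitial-like nuclei stand out. Macrophage-like nuclei are higher in 18 of 34, against 18.1% of all genes. That count was 6 of 33 without pool 3 and 2 of 32 without nuclei with at least 10 Ttn UMIs.

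Valve interstitial-like nuclei had 3 members higher and 11 lower, against 16.9% and 15.8% of all genes. Tmod1, which caps actin filaments, had 58.6, 69.8 and 61.5 CPM, above every pool of the other 7 classes (3.18-fold, log2 1.67, SE 0.13, edgeR adjusted p = 7.11e-12). It had a UMI in 5.46% of thinned and 16.5% of unthinned nuclei, against 1.53% and 6.9% of endothelial-like ones. Nebl (log2 1.01, edgeR adjusted p = 0.00198) and Fhod3 (0.76, edgeR adjusted p = 0.0176) were higher too, and Unc45b was lower (log2 -2.30). Without nuclei with at least 10 Ttn UMIs, Tmod1 was higher by 1.91, Nebl by 1.75 and Fhod3 by 1.67, and 5 members were higher and 4 lower of 32. The lower members numbered 4 without pool 3, 7 without pool 2, 6 with no replicate block and 22, beside 1 higher, with the haemoglobin-led cluster counted as a class. The call of Fhod3 was lost at the 1% mitochondrial limit (edgeR adjusted p = 0.0522) and without pool 1 or pool 2. Outside the members, Pdlim3, a Z-disc protein, was higher by 1.92 and Cmya5, a partner of titin and desmin, by 2.06.

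The endothelial-like class had 2 members higher and 7 lower (19.7% and 14.5% of all genes), the lymphatic class 1 and 2 (12.7% and 11%) and the fibroblast-like class 1 and 6 (15% and 10.8%). In endothelial-like nuclei Nebl had 37.5, 69.7 and 43.8 CPM (log2 0.81, edgeR adjusted p = 0.00508) and Unc45b 23.6, 24.7 and 26.3 CPM (0.73, edgeR adjusted p = 0.00246). Mesothelial-like nuclei raise the mean CPM of the other classes for Unc45b, and against that mean the endothelial-like level was higher in only 1 of 3 pools. Flnc had 91.8, 77.8 and 33.3 CPM in lymphatic endothelial-like nuclei (log2 1.59, edgeR adjusted p = 9.34e-05), and Myl4 had 69.4, 102 and 53.4 CPM in fibroblast-like nuclei (0.91, edgeR adjusted p = 1.7e-06). The lymphatic library of pool 3 stood apart, with 7 erythroid markers summing to 24411 CPM against 272 and 503 CPM in pools 1 and 2. Without pool 3 Flnc was higher by 1.94 (edgeR adjusted p = 9.09e-06) and 3 members were higher, as many as without pool 1. At the 1% mitochondrial limit Flnc did not pass (edgeR adjusted p = 0.0692). Without pool 3 the fibroblast-like class had 3 higher and 3 lower, and with classes of at least 100 nuclei in every pool it had 10 higher and 6 lower. It had 13 lower with the members among the clustering genes and 13 with the haemoglobin-led cluster counted as a class. The endothelial-like class had 6 higher and 8 lower with classes of at least 100 nuclei and 2 higher and 17 lower with the haemoglobin-led cluster counted. Because each class is compared with the mean of the others, these counts depend on which classes enter.

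Over the 7 classes other than the smooth muscle-like one, 26 of 34 members were higher in at least 1, against 74.7% of all genes. In macrophage-like nuclei 18 members were higher and 1 lower, against 18.1% and 12.7% of all genes. Without pool 3 it was 6 higher and 2 lower, and with no replicate block 13 higher and 1 lower. With the haemoglobin-led cluster, described at the end, counted as a class it was 9 higher and 4 lower. Of 9 tested cardiomyocyte genes outside the list 5 were higher here and 0 lower, Corin, Mylk3, Txlnb, Trdn and Smpx, and the 11 summed to 401, 522 and 977 CPM. Ttn had 420, 812 and 2527 CPM, most of it in pool 3 (log2 2.29, edgeR adjusted p = 2.57e-08). Of the 279 nuclei, 19 held at least 10 Ttn UMIs each and 91.5% of the Ttn UMIs of the class, with a median total of 21906 UMIs. Without them 2 of 32 tested members were higher and 3 lower, where Ttn itself is not to be read because these nuclei were picked by their Ttn count. Whether these nuclei are doublets that were not marked was not tested.

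A cluster of 667 nuclei led by haemoglobin genes was left unnamed and out of the tests, a choice made after its genes were seen. It met the rule for an erythroid name with 4 markers, but its 10 leading genes also held muscle genes, Myl3 of the members and Cox6a2 and Ckm of the cardiomyocyte genes outside the list. It had a median of 2252 UMIs and a median mitochondrial share of 3.59%, and 349, 263 and 55 nuclei in the pools. The 35 genes took 2.06%, 3.15% and 3.60% of its UMIs in pools 1, 2 and 3, against 4.25%, 3.97% and 3.57% in cardiomyocyte-like nuclei, so only pool 3 was level with them. The members had a median level of 97.7% of the cardiomyocyte-like one. That level was 197% for the 10 genes under 10 kb of span, 95.6% for the 20 in between and 40.1% for the 5 over 100 kb. In 3848 of the nuclei left out for over 5% mitochondrial UMIs, those with at least 1000 UMIs, the same 3 figures were 127%, 52.8% and 10.9%, and the 35 genes took 1.43% of UMIs. The share of Tnni3 among its pair was 63.2% in the haemoglobin-led cluster, 74.7% in the Mb-led cluster and 37.7% in the Fgf13-led cluster.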

How the data were processed

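The values used were the deposited UMI counts, raw and whole, 1 per gene and barcode. Per the file headers, they come from Cell Ranger 7.1.0. The build is GRCm39 per the submitters' processing notes, which also name Cell Ranger 7.0.1 with no role. Whether introns were counted, and the annotation, are not given in the sources used here. Nuclei with at least 1000 UMIs, 300 genes and at most 5% of UMIs from 13 mitochondrial genes were kept. Scrublet's own threshold marked 0 nuclei in each pool, so, after this was seen, the highest scores were marked at 0.8% per 1000 deposited nuclei, which removed 597, 154 and 138 nuclei. Counts were log-transformed and clustered in scanpy 1.11.5 (2000 variable genes without the 35 members, 30 components, 15 neighbours, leidenalg 0.10.2 at resolution 1). A cluster took the name of a class with at least 3 markers in at least 10% of its nuclei at 2-fold or more, and "like" marks such names. The haemoglobin-led cluster was left unnamed after its genes were seen.

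UMIs were summed per pool and class with at least 20 nuclei in every pool and tested with edgeR 4.0.16 (R 4.3.3) after TMM scaling and filterByExpr. Pool was a block, since 1 library holds every class of its pool. Log2 differences are edgeR's. Spans came from GENCODE M21 genes on GRCm38, matched by symbol. Counts were simulated at 1 assumed dispersion with no differences between pools. Changes were put only into the Fgf13-led cluster, the endothelial-like class or cycling nuclei. The tests recovered 81.0% and 96.0% of 2-fold and 4-fold changes in that cluster and 86.5% and 96.5% in that class. In cycling nuclei they recovered 52.5% and 85.5%. Unchanged genes called numbered 10 and 10, 9 and 9, and 1 and 5. Recovery in the smaller clusters and classes was not simulated.

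The members and lists were chosen with earlier results of these data known. Any of the 35 genes could be named, genes of the other lists where a list is described, and markers and the 5 leading genes of a cluster to identify it. Each alternative was 1 change of setting. The 1% mitochondrial limit in the cluster and class tests, the fit without nuclei rich in Ttn, the fit without 1 nucleus and those on the haemoglobin-led and Mb-led clusters were chosen after seeing the data. The chromatin part was not analysed here. Depth differed between pools, and shares of nuclei were compared after thinning to 1000 UMIs.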

Additional observations from a re-analysis of the deposited data

How the results depend on the processing

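Of 60 results for single genes, 782 values were computed under alternatives, and 702 kept direction and call, 76 kept direction but lost the call and 4 reversed. The reversals were Acta1 in the atrial-like cluster (-0.19 without pool 1 and up to 3.41 without another pool), Tnnc1 there with at most 1% mitochondrial UMIs (-0.16), Myl4 in smooth muscle-like nuclei with classes of at least 100 nuclei (-0.14), and Ttn there without nuclei with at least 10 Ttn UMIs (0.17), a value fixed in part by picking nuclei on Ttn, so no test of it. The 27 members that differed between clusters became 24 to 26 when 1 pool was left out and 23 with no replicate block. Those higher in smooth muscle-like nuclei (5) were 4 when any pool was left out and 4 with no replicate block, but 9 without the Ttn-rich nuclei and 3 at the 1% limit. Those higher in another class (26) were 22 to 24 when a pool was left out, 19 with no replicate block and 17 with the haemoglobin-led cluster counted as a class. For cycling nuclei the count of 1 became 0 with DESeq2, with at least 3 cell cycle UMIs, with matching over all cardiomyocyte-like nuclei, with no replicate block and without the Acta1-rich nucleus, 3 with no filter on low counts, and 0 to 1 when a pool was left out. The cause of these moves was not tested. With 1 pool left out the Myh6 share was 90.06% to 90.87%, that of Tnni3 43.5% to 46.3%, of Acta1 1.42% to 2.12%, of Myl2 87.8% to 91.2% and of Myl3 77.3% to 83.4%. At the 1% limit the Tnni3 share was 37.98%, that of Myl2 96.89% and that of Myl3 89.98%. The median level outside cardiomyocyte-like nuclei, 11.4% as a mean of the pools' medians, was 9.22% at that limit and 10.4% to 12.3% when a pool was left out. Members summed to 37684.8 to 41075.4 CPM with a pool left out.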
